A study of Rattus norvegicus with 9 samples.

Results

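The cerebral cortex of 12-month-old rats was compared with that of 28-month-old rats in 6 of the 9 RNA-seq libraries of an ageing series, chosen by the age in their labels. Male BN rats (substrain BN/SsNOlaHSD, Harlan UK), fed ad libitum under barrier conditions, were killed at 12 or 28 months. The ages shared strain, sex, diet and housing. Total RNA of 2 rats was pooled for each library, giving 3 libraries per age, and ribosomal RNA was removed before SOLiD sequencing, so that RNAs without a poly(A) tail were also counted. The values are raw counts of reads per Ensembl gene. Each pool is 1 sample here and the rats within a pool cannot be told apart. Libraries are named 12 months samples 1 to 3 and 28 months samples 1 to 3.

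The library labelled 12 months sample 3 needs care. Its count file holds the same value as that of 6 months sample 2 in all 29516 gene rows, and the labels do not settle which age it belongs to. Across 10772 genes averaging 20 or more reads, its log2 counts correlated at 0.975 (Pearson, across genes) with 28 months sample 3, at 0.943 with 12 months sample 1 and at 0.957 with 12 months sample 2, while 12 months samples 1 and 2 correlated at 0.974. It correlated at 0.957 with 28 months sample 1 and at 0.951 with 28 months sample 2. The comparison was therefore made with all 6 libraries as labelled and again with the 5 that remain without it, and values are from 6 libraries where no number is given. Reads counted on genes lay between 6513376 and 8648997 per library, of which 1 identifier, ENSRNOG00000043866, took 44.0 to 52.4%. Normalized counts below are CPM, reads scaled to library size, with TMM factors over the 6 libraries. Log2FC above 0 means higher at 28 months, and a gene is called when the false discovery rate (FDR) of edgeR's quasi-likelihood test is under 0.05. The edgeR exact test with tagwise dispersion and the Wald test of DESeq2 passed more genes, and their FDR with 6 libraries is named where it puts a described gene on the other side of this threshold.

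As background, MHC class II molecules are pairs of an alpha and a beta chain that display peptides from outside the cell to helper T cells. In the rat they are encoded by RT1-B and RT1-D genes, and the invariant chain Cd74 escorts them to the compartment where peptide is loaded. In healthy brain they are found mainly on microglia and on macrophages at its borders. Gfap is the intermediate filament of astrocytes, and small nucleolar RNAs (snoRNAs) guide chemical modification of ribosomal and spliceosomal RNA: box C/D snoRNAs guide 2′-O-methylation and box H/ACA snoRNAs pseudouridylation.

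The sequences upstream of the class II genes are shown because these genes are the largest group among the calls and 2 short motifs are known from class II promoters in general. Each is the 250 bases before the RefSeq gene start on GRCr8, read 5′ to 3′ on the gene's strand. Capitals mark the core of the Y box (CCAAT or ATTGG, the same motif on either strand) and of the X box (AGCAAC or GTTGCT).
RT1-Ba, chr20:4576807-4577056, plus strand: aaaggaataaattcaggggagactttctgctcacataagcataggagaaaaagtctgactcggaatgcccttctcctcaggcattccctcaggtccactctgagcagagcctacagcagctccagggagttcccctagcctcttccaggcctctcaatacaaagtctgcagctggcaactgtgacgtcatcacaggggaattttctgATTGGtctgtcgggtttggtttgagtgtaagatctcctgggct
RT1-Bb, chr20:4604119-4604368, minus strand: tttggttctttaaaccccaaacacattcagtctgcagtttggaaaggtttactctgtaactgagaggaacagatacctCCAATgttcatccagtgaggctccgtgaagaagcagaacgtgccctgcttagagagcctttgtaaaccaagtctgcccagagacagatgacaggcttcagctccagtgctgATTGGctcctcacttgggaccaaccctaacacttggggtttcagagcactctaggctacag
RT1-Da, chr20:4515165-4515414, plus strand: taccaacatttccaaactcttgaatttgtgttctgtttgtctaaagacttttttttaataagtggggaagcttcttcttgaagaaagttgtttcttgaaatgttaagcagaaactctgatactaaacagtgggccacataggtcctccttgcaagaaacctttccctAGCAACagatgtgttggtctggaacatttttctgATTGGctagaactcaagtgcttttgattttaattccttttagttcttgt
RT1-Db1, chr20:4560163-4560412, minus strand: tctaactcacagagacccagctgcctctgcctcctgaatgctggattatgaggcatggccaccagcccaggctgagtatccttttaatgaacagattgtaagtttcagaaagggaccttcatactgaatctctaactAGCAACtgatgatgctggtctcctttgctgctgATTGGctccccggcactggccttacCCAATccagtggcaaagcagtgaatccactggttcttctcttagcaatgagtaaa
All 4 windows hold at least 1 Y box core, the nearest to the start lying 43 bases upstream in RT1-Ba, 61 in RT1-Bb, 49 in RT1-Da and 55 in RT1-Db1. The X box core is in the windows of RT1-Da and RT1-Db1, at 83 and 113 bases. Of 33469 RefSeq windows of this length, 34.0% hold a Y box core, 12.1% an X box core and 3.96% both. The windows of Gfap and Sult1a1, the other called protein-coding genes looked up, hold neither motif. A match is a run of letters and was not tested as a binding site. Only these exact letters were searched, so a window without a match may still hold a variant of either box.

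The stretches of transcript for which the study designed quantitative PCR assays are shown for 4 of the genes that differed in the fit of 6 or of 5 libraries, as the transcript sequence at hand for them. Capitals mark the ends that the forward and reverse primers cover.
RT1-Bb: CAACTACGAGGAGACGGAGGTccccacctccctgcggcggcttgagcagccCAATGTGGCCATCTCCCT
RT1-Db1: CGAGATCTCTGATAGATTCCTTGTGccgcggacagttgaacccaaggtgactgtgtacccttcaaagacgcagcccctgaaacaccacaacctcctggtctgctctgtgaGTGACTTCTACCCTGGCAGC
Gfap: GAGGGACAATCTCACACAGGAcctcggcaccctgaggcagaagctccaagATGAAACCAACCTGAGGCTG
Sult1a1: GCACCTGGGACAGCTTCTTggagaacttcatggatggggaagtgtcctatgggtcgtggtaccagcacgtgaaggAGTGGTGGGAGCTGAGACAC
The count files were not made from these amplicons. Reads were counted over whole genes, and those from stretches shared by related RT1 genes may have been divided between them or lost.

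Between 12 and 28 months, 9 of 15992 genes were called, 4 higher and 5 lower at 28 months. Lower were 3 class II chains (RT1-Ba, RT1-Da, RT1-Db1), their invariant chain Cd74, and Gfap. Higher were the sulfotransferase Sult1a1, 2 box C/D snoRNAs (SNORD37 and SNORD52) and 1 identifier to which the sources used here give no name, ENSRNOG00000035877. The calls are 0.0250% of the genes tested in the upward and 0.0313% in the downward direction. An unadjusted p under 0.05 was reached by 304 genes upward (1.90%) and 397 downward (2.48%). The exact test called 50 genes (0.313%), 33 higher and 17 lower. All 9 calls had a mean of 20 or more reads.

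**Figure D1:**
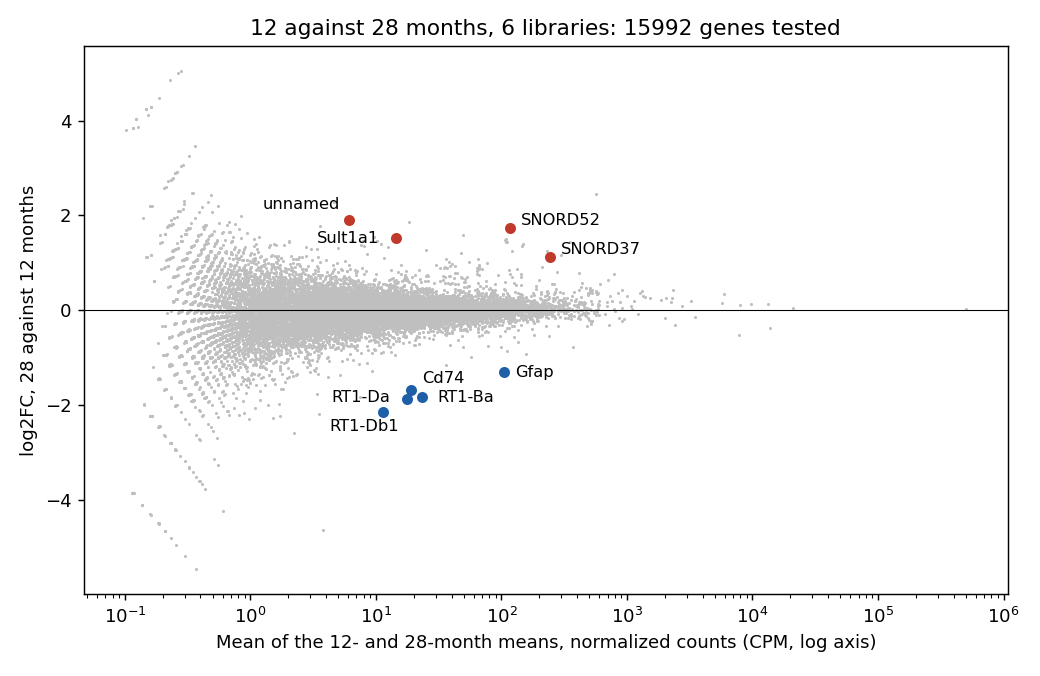
Log2FC of 28 against 12 months on the vertical axis against the mean normalized count (CPM, log axis) for the 15992 genes tested in 6 libraries, 1 point per gene. The 9 genes with an FDR under 0.05 are coloured, red where higher and blue where lower at 28 months, at log2FC values of 1.12 and above or of -1.30 and below.

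Without 12 months sample 3, 19 of 15840 genes were called, 12 higher (0.0758%) and 7 lower (0.0442%). All 9 genes above were among them. The 10 that were added are Aif1 and RT1-Bb, both lower, and SNORD63, SNORA19 (ENSRNOG00000034555) and 6 identifiers without a name, all higher. In this fit 636 genes upward (4.02%) and 580 downward (3.66%) had an unadjusted p under 0.05. Of the 701 genes under that p with 6 libraries, 507 were also under it with 5, which is 72.3% of the first list and 41.7% of the second, all in the same direction.

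The calls depended on which libraries entered the fit. All 9 calls were lost in the quasi-likelihood test when 12 months sample 2 was left out (515 genes at an unadjusted p under 0.05), as they were without 28 months sample 1 (695) and without 28 months sample 3 (607). Gfap, Cd74, SNORD37 and SNORD52 were also lost without 12 months sample 1, and RT1-Da, SNORD37 and ENSRNOG00000035877 without 28 months sample 2. Over the 15 settings tried, the FDR of RT1-Ba ran from 1.26e-09 in the exact test to 0.999 in the fit over all 9 libraries. That fit holds the duplicated file under both ages. With 1 library left out the FDR of RT1-Ba was at most 0.0750. The FDR of Sult1a1 ran from 1.21e-06 in the exact test to 0.0964 without 12 months sample 2. The log2FC of the named calls changed less: RT1-Ba stayed between -1.95 and -1.59, RT1-Db1 between -2.38 and -1.96, Gfap between -1.51 and -1.20, Sult1a1 between 1.47 and 1.59 and SNORD52 between 1.52 and 1.95 over these settings.

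**Figure D2:**
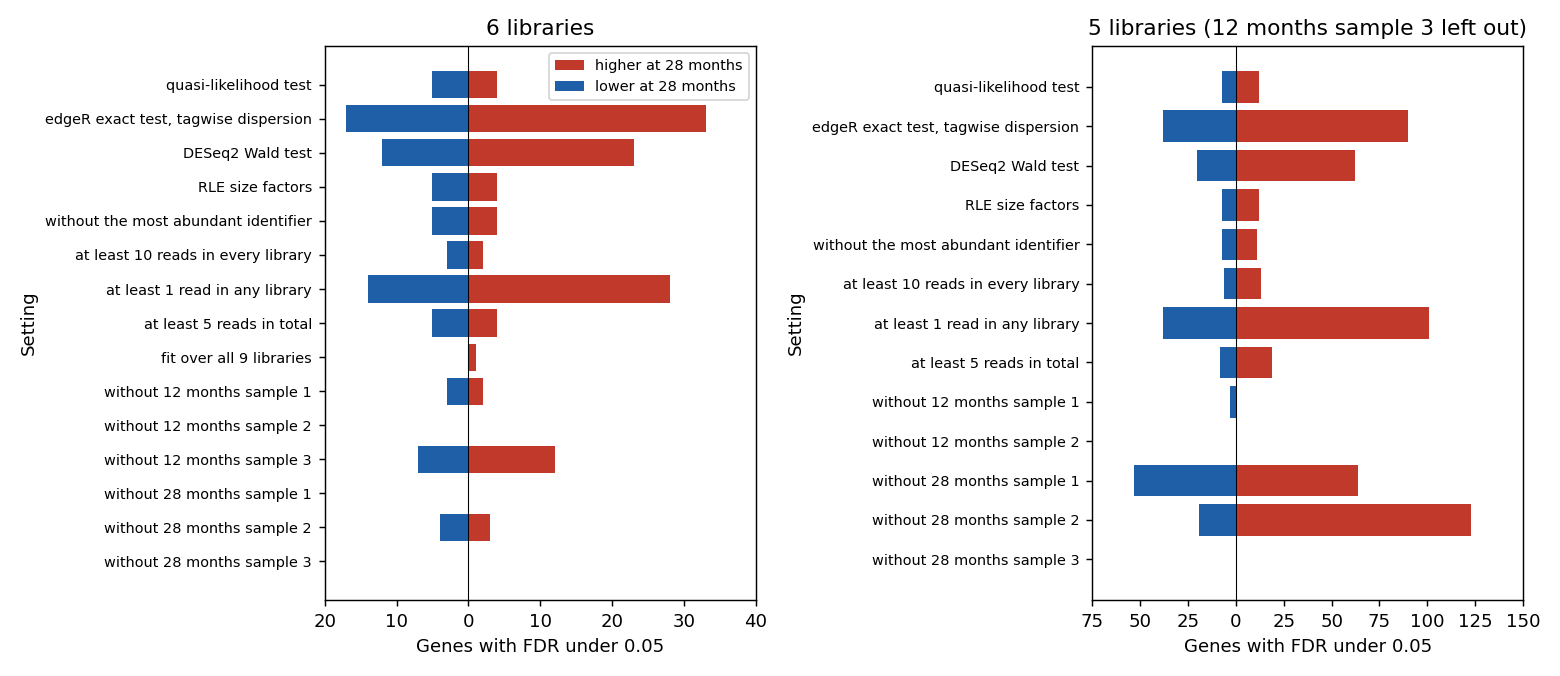
Number of genes with an FDR under 0.05 in each setting, to the right in red where higher and to the left in blue where lower at 28 months, for the fit of 6 libraries (left panel) and of 5 (right panel), on different horizontal scales. With 6 libraries the totals run from 0, without 12 months sample 2 among others, to 50 in the exact test, and with 5 libraries from 0 to 142, the latter without 28 months sample 2.

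The MHC class II genes were lower at 28 months in every library. RT1-Ba (ENSRNOG00000000451), the alpha chain of RT1-B, had 29.0, 46.6 and 32.4 normalized counts in 12 months samples 1 to 3 and 9.95, 10.6 and 10.03 in 28 months samples 1 to 3. The 28-month libraries lay within 1 count of each other and far below the lowest 12-month library. Means were 36.0 ± 9.38 (SD, n = 3) and 10.2 ± 0.35 (SD, n = 3), a 3.53-fold fall with a log2FC of -1.82 (standard error 0.21, FDR 0.0101, edgeR quasi-likelihood test). It was -1.89 (FDR 0.00914) with 5 libraries.

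RT1-Db1 (ENSRNOG00000033215), a beta chain of RT1-D, had 16.5, 22.9 and 16.4 normalized counts at 12 months and 3.19, 5.57 and 3.95 at 28 months. Its log2FC of -2.14 (standard error 0.25, FDR 0.0101) was the largest fall among the 9 calls, a 4.39-fold difference, and was -2.22 (FDR 0.00914) with 5 libraries. RT1-Da (ENSRNOG00000032844), the alpha chain that pairs with it, had 20.9, 38.0 and 25.1 at 12 months and 7.25, 10.03 and 5.78 at 28 months, and its log2FC was -1.86 (standard error 0.26, FDR 0.0330), and -1.94 (FDR 0.0171) with 5 libraries. For both chains 12 months sample 2 was the highest of its age and the ages did not overlap.

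Cd74 (ENSRNOG00000018735) had 28.2, 35.6 and 23.4 normalized counts at 12 months and 7.13, 12.96 and 6.99 at 28 months, with a log2FC of -1.69 (standard error 0.26, FDR 0.0422), and -1.82 (FDR 0.0148) with 5 libraries. RT1-Bb (ENSRNOG00000032708), the beta chain of RT1-B, had 8.94, 16.8 and 8.96 against 2.70, 4.74 and 2.28. Its log2FC of -1.83 had an FDR of 0.178 with 6 libraries, and it was called with 5 (log2FC -1.99, FDR 0.0487). With 6 libraries its FDR was 5.98e-05 in the exact test and 0.00117 with DESeq2. These 5 genes are the members of a list of 17 antigen presentation genes for which an identifier was at hand. All 5 had every 28-month library below every 12-month library, where 5.27% of all genes did, and their median log2FC was -1.83 (-1.94 with 5 libraries) against -0.01 over all genes tested. The study picked these 5 on the same samples, so their shared direction is not independent evidence. Summed over the 5 genes, the libraries held 103 to 160 normalized counts (103.5, 159.9 and 106.2) at 12 months and 29.0 to 43.9 at 28 months.

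**Figure D3:**
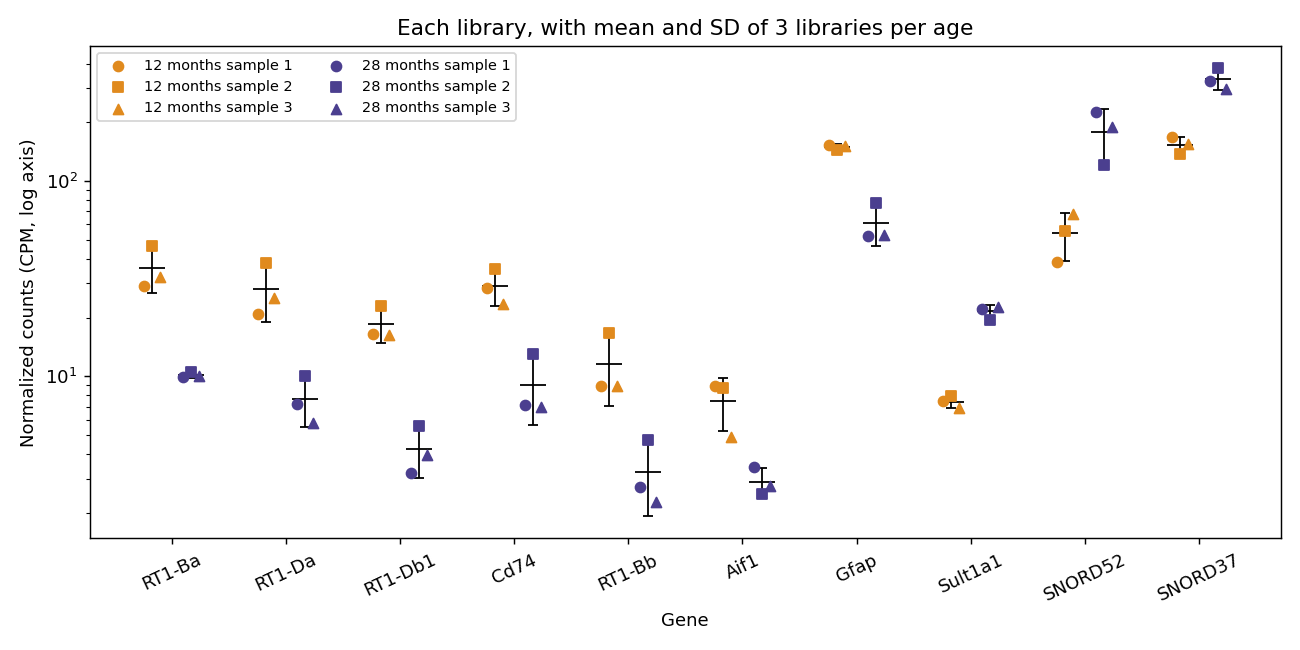
Normalized counts (CPM, log axis) of 10 of the 12 named genes called in the fit of 6 or of 5 libraries (SNORD63 and SNORA19 are not drawn), 1 symbol per library with orange for 12 and purple for 28 months, and black bars for the mean and SD of 3 libraries. The orange and purple symbols of the 10 genes drawn do not overlap, and 12 months sample 3 (orange triangle) is the lowest 12-month library for Aif1 and the highest for SNORD52.

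Microglial and immune genes outside the class II group had lower normalized counts in all 28-month libraries. Apart from Fcgr3a, which passed no test, whether they passed depended on the test. Aif1 (ENSRNOG00000000853), which encodes the microglial and macrophage protein Iba1, had 8.94, 8.73 and 4.90 normalized counts at 12 months and 3.44, 2.51 and 2.74 at 28 months. Its lowest 12-month value is that of sample 3. With all 6 libraries the log2FC was -1.37 (standard error 0.30, FDR 0.363), and without that library it was -1.60 (FDR 0.0444). The exact test passed it with all 6 libraries (FDR 0.0200) and DESeq2 did not (FDR 0.0998).

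The Fc receptor gene Fcgr3a had only 30, 10 and 15 reads at 12 months and 11, 6 and 5 at 28 months (log2FC -1.35, FDR 0.998). Its FDR was 0.541 in the exact test, and DESeq2 gave it no adjusted p. The lowest 12-month library, at 1.36 normalized counts, was barely above the highest 28-month library at 1.35. Aif1 and Fcgr3a are the 2 of 24 microglia markers with an identifier, and their sum was 7.004 to 13.2 normalized counts at 12 months and 3.34 to 4.79 at 28 months. The 22 other markers, among them the ones that define resting microglia, could not be looked up, and the part of the number of microglia in the fall of the class II genes was not tested. In RNA of whole cortex, fewer cells of a type and less RNA per cell cannot be told apart.

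E9PSV0_RAT, which the study's table describes as complement component 4, gene 2, had 6.53, 3.95 and 5.18 normalized counts at 12 months and 0.74, 2.37 and 1.52 at 28 months (log2FC -1.77, FDR 0.363). Ifi27, an interferon-induced gene, had 14.2, 12.1 and 8.26 against 4.55, 5.99 and 5.47 (log2FC -1.11, FDR 0.363). Neither was called by the quasi-likelihood test in either fit. The exact test passed both, with an FDR of 0.00617 for E9PSV0_RAT and 0.0392 for Ifi27 with 6 libraries and of 0.00934 and 0.00127 with 5, and DESeq2 passed Ifi27 with 5 (FDR 0.0177). In both genes the ages did not overlap. F1LTG5_RAT, an uncharacterized protein, had a log2FC of -1.13 (FDR 0.363, and 0.0417 in the exact test).

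Gfap (ENSRNOG00000002919) was lower at 28 months. It had 154.0, 143.6 and 151.4 normalized counts in the 12-month libraries and 52.1, 77.6 and 53.0 in the 28-month libraries. The 12-month libraries were close together, at 149.7 ± 5.43 (SD, n = 3), and 28 months sample 2 was the highest of its age, in a group at 60.9 ± 14.5 (SD, n = 3). The log2FC was -1.30 (standard error 0.18, FDR 0.0330), and -1.29 (FDR 0.0216) with 5 libraries. Gfap is the single one of 20 astrocyte markers with an identifier, so whether other astrocyte genes moved was not tested.

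Genes linked to myelin and iron did not pass the quasi-likelihood test but passed others. Qdpr, which regenerates the cofactor tetrahydrobiopterin and is high in oligodendrocytes, had 127.0, 153.3 and 148.2 normalized counts at 12 months and 88.0, 69.9 and 78.3 at 28 months (log2FC -0.86, standard error 0.16, FDR 0.205). Its FDR was 0.0599 in the exact test and 0.00169 with DESeq2, and with 5 libraries its log2FC was -0.83 (FDR 0.0990). The identifier named Tf (ENSRNOG00000030625) had 206, 208 and 198 against 84.4, 127.9 and 110.1 (log2FC -0.93, FDR 0.212, against 0.0375 in the exact test and 0.000989 with DESeq2). Its name would be that of transferrin, but the study's table describes it as a signal recognition particle receptor subunit, so its identity is uncertain. For both, the ages did not overlap. These are the 2 of 21 genes of the oligodendrocyte list with an identifier.

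RGD1306682, whose product is not described in the sources used here, had 19.9, 19.4 and 16.5 normalized counts at 12 months and 9.58, 10.45 and 9.12 at 28 months (log2FC -0.94, standard error 0.18, FDR 0.212). Its ages did not overlap, with 5 libraries its FDR was 0.0730, and in the exact test with 6 it was 0.0384.

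Heph, the copper-dependent ferroxidase hephaestin that assists iron export, had 8.66, 6.82 and 6.58 normalized counts at 12 months and 16.8, 16.6 and 14.1 at 28 months. The ages did not overlap and the libraries within an age were close. The log2FC was 1.11 (standard error 0.20), with an FDR of 0.162 that ranks 11 among all genes, and 1.03 (FDR 0.116) with 5 libraries. With 6 libraries the exact test (FDR 0.00715) and DESeq2 (FDR 0.0180) passed it.

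Sult1a1 (ENSRNOG00000019342), a cytosolic enzyme that sulfates phenols, rose. It had 7.52, 7.91 and 6.86 normalized counts in 12 months samples 1 to 3 and 22.2, 19.5 and 22.8 in 28 months samples 1 to 3. The libraries of each age were tightly grouped, at 7.43 ± 0.53 and 21.5 ± 1.76 (SD, n = 3), and the library deposited under 2 ages lay with the other 12-month libraries. The rise was 2.89-fold with a log2FC of 1.53 (standard error 0.18, FDR 0.0101), and 1.47 (FDR 0.0148) with 5 libraries. It was the 1 gene called when the dispersion was estimated over all 9 libraries, a fit in which the duplicated file enters under both ages, so that only 8 of its libraries are distinct.

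Plasma proteins and blood-borne messages had lower mean values at 28 months. The quasi-likelihood test called none of them, while the exact test and DESeq2 passed Alb, Apob and the globin LOC689064 with 6 libraries. Alb, albumin, had 3.26, 6.95 and 7.14 normalized counts at 12 months and 1.84, 0.98 and 0.91 at 28 months (log2FC -2.18, FDR 0.178, against 0.000214 in the exact test and 0.00615 with DESeq2). Apob, the core apolipoprotein of low density lipoprotein, had 15, 42 and 26 reads at 12 months and 9, 5 and 0 at 28 months (log2FC -2.58, FDR 0.513, against 0.000659 and 0.0266 in these tests). With 5 libraries the log2FC was -2.003 for Alb (FDR 0.142) and -2.61 for Apob (FDR 0.245). For both genes each 28-month library was below each 12-month library, at 51 or fewer reads per library. The plasma protein list has 4 of 21 genes with an identifier, which are Alb, Apob, the identifier named Tf and Gc. Gc, the vitamin D-binding protein, had 2, 14 and 16 reads at 12 months and 3, 4 and 0 at 28 months. Its ages overlapped (log2FC -2.16, FDR 0.998, and 0.469 in the exact test), and DESeq2 gave it no adjusted p.

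LOC689064, described as a beta globin chain of red blood cells, had 50.2, 33.1 and 64.996 normalized counts at 12 months and 17.1, 21.2 and 29.0 at 28 months. Its log2FC was -1.15 (FDR 0.363), and -0.90 (FDR 0.259) without 12 months sample 3, which had the highest value of all. The exact test gave an FDR of 0.00687 and DESeq2 of 0.0125 with 6 libraries. Reads from near-identical globin copies may be shared. Globin was the 1 of 15 blood markers with an identifier.

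**Figure D4:**
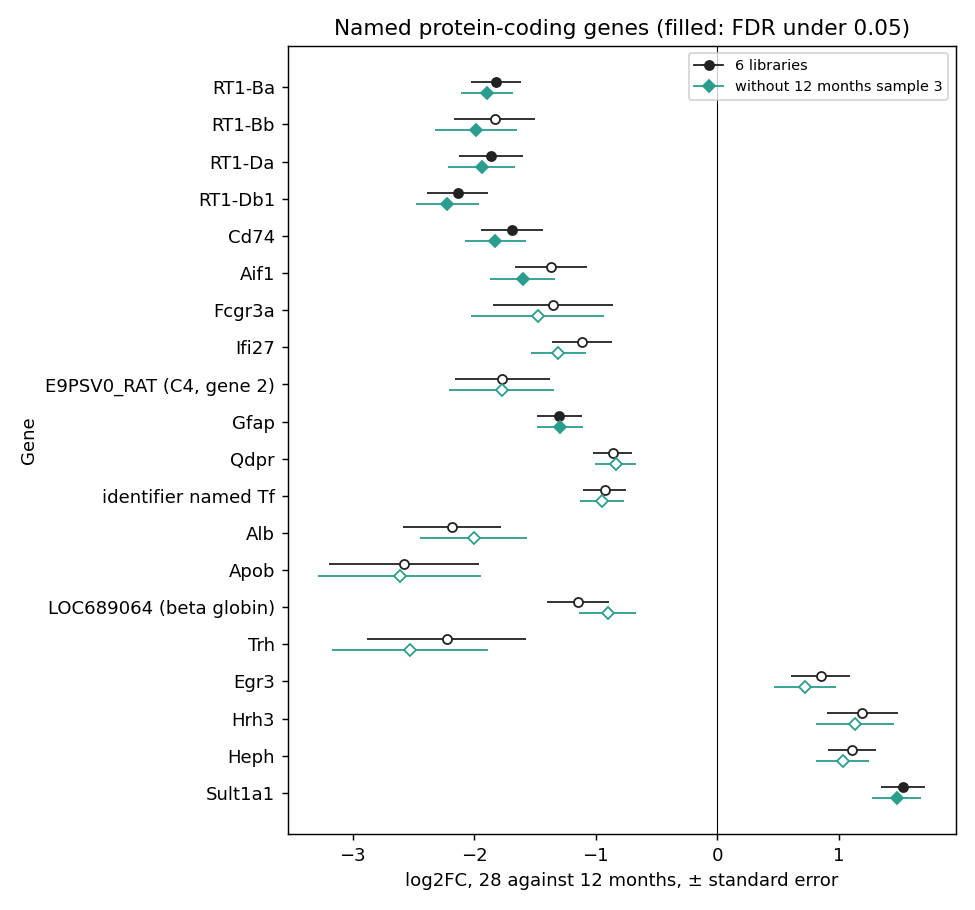
Log2FC of 28 against 12 months with its standard error for 20 named protein-coding genes, in black for all 6 libraries and in green without 12 months sample 3, filled where the FDR is under 0.05. The 16 genes from RT1-Ba to Trh lie to the left of 0 and the 4 from Egr3 to Sult1a1 to the right in both fits, and RT1-Bb and Aif1 are filled in green alone.

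No neuronal gene with an identifier was called by the quasi-likelihood test. Hrh3, the histamine H3 receptor that restrains transmitter release, had 5.54, 5.32 and 4.76 normalized counts at 12 months and 11.1, 17.3 and 7.45 at 28 months (log2FC 1.19, standard error 0.29, FDR 0.531, and 0.0363 in the exact test). Egr3, an immediate early transcription factor, had 6.25, 4.36 and 3.92 against 8.48, 9.75 and 8.06 (log2FC 0.85, FDR 0.741). In both genes the 28-month libraries were above the 12-month ones, and neither passed the quasi-likelihood test. With 5 libraries the log2FC was 1.13 (FDR 0.321) for Hrh3 and 0.72 (FDR 0.516) for Egr3.

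The other immediate early genes with an identifier overlapped between the ages. Arc had 61.5, 35.4 and 16.0 normalized counts at 12 months and 42.9, 28.6 and 24.8 at 28 months (log2FC -0.23, 95% interval -1.03 to 0.57), and its log2FC with 5 libraries was -0.59 (FDR 0.620). Klf10 was at 10.4 ± 1.68 and 10.4 ± 3.35 (SD, n = 3). Of 21 genes on that list, 3 have an identifier and 0 were called, and 1 had an unadjusted p under 0.05, in the quasi-likelihood test with 6 libraries.

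Gria2, a subunit of AMPA-type glutamate receptors, had 956.7, 755.1 and 785.3 normalized counts at 12 months and 944.7, 941.1 and 935.7 at 28 months, and a log2FC of 0.17 (95% interval -0.17 to 0.52). Nptxr, a receptor of neuronal pentraxins, had 98.8, 80.0 and 73.7 against 104.9, 176.5 and 100.8 (log2FC 0.60, FDR 0.998). The reference gene Hprt1 stood at 71.4 ± 0.69 and 71.3 ± 7.10 (SD, n = 3), with a 95% interval of its log2FC from -0.33 to 0.32.

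For some genes 1 library decided the size of the difference. Tph1, the peripheral and pineal tryptophan hydroxylase, had 1, 8 and 147 reads in 12 months samples 1 to 3 and 0, 2 and 4 in the 28-month libraries. Its log2FC was -4.63 (standard error 1.43, FDR 0.847) with sample 3 and -1.11 (standard error 1.12, FDR 0.838) without it, and the FDR of the exact test went from 0.000296 to 0.995. Lrp2, a marker of choroid plexus and ependyma, had 7, 15 and 32 reads against 3, 1 and 7, with a log2FC of -2.27 that became -1.56. Etv1, a transcription factor of layer 5 neurons, had 207 normalized counts in sample 3 and 71.8 and 85.2 in 12 months samples 1 and 2, and its log2FC turned from -0.21 to 0.41 when that library was left out.

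Cdh1, the epithelial cadherin and the 1 of 14 genes of the meningeal list with an identifier, had 27, 29 and 47 reads at 12 months and 19, 23 and 14 at 28 months (log2FC -0.90, FDR 0.998). Tph2, the neuronal tryptophan hydroxylase, had 3, 33 and 16 reads against 8, 15 and 7, a range within each age that exceeded the difference between them (log2FC -0.80, 95% interval -2.16 to 0.56).

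Trh, the thyrotropin-releasing hormone precursor, turned on 12 months sample 2, which had 41 reads, while samples 1 and 3 had 10 and 11 and the 28-month libraries 2, 6 and 5. Its log2FC was -2.23 (FDR 0.774), -1.28 without that library and -2.53 (FDR 0.235, exact test 0.00614) without 12 months sample 3. The heat shock gene Hspa1a, whose reads cannot be separated from its near-identical copy, had 28, 18 and 22 reads at 12 months and 21, 10 and 11 at 28 months (log2FC -0.73, 95% interval -1.51 to 0.04).

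Of the 16 named box C/D snoRNAs, 2 were called higher by the quasi-likelihood test, against 0.0250% of all genes tested. SNORD52 (ENSRNOG00000035751) had 38.5, 55.5 and 68.2 normalized counts at 12 months and 226.7, 120.7 and 190.3 at 28 months, which are 271, 407 and 487 reads against 1845, 866 and 1252. The lowest 28-month library was above the highest 12-month library, which was sample 3. The log2FC was 1.73 (standard error 0.26, FDR 0.0411), and 1.93 (FDR 0.0148) with 5 libraries.

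SNORD37 (ENSRNOG00000035271) had 168.5, 138.4 and 155.1 normalized counts at 12 months and 327.5, 378.2 and 297.0 at 28 months. Its log2FC of 1.12 (standard error 0.17, FDR 0.0411) was the same to 2 decimals with 5 libraries (FDR 0.0354), and sample 3 lay between the other 12-month libraries. SNORD63 had 29.4, 33.0 and 62.2 against 100.5, 66.3 and 96.7, and was called with 5 libraries (log2FC 1.49, FDR 0.0148) and not with 6 (log2FC 1.08, FDR 0.552), where the exact test (FDR 0.0229) and DESeq2 (FDR 0.0225) passed it.

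SNORD83 had 44.7, 39.0 and 54.1 normalized counts at 12 months and 95.5, 75.5 and 75.2 at 28 months (log2FC 0.84, FDR 0.345), and SNORD42 had 62.6, 64.9 and 84.3 against 114.4, 122.6 and 116.4 (log2FC 0.74, FDR 0.363). DESeq2 passed both, with an FDR of 0.0168 and 0.0225. In each the 28-month libraries were above the 12-month ones and sample 3 was the highest at 12 months. SNORD15 had 5.68, 7.09 and 11.1 against 58.0, 14.6 and 13.5, so that 28 months sample 1 stood apart from the other 28-month libraries (log2FC 1.86, FDR 0.620, and 0.000687 in the exact test). At the other end, SNORD95, SNORD16 and U3 had log2FC values of 0.27, 0.14 and 0.24 and ages that overlapped.

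The largest log2FC among the snoRNAs with a mean of 20 or more reads was that of 1 copy of SNORD116 (ENSRNOG00000034896), a snoRNA of an imprinted cluster with many near-identical copies that is expressed in neurons. It had 85.9, 131.8 and 313 normalized counts at 12 months and 1929, 351.8 and 617.1 at 28 months (log2FC 2.45, standard error 0.58, FDR 0.454), and with 5 libraries its log2FC was 3.15 (FDR 0.0611). The FDR of the exact test was 9.97e-06 and that of DESeq2 0.625 with 6 libraries. The libraries of each age differed among themselves by several fold. The other 2 identifiers with this name had log2FC values of 0.68 and 0.50, and SNORD113, from another imprinted cluster, had 1.18 (FDR 0.866).

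Over the 16 named box C/D snoRNAs the log2FC was positive in all 16 (15 with 5 libraries), the median was 0.80 (0.99 with 5 libraries), 2 were called (3 with 5 libraries), 12 had an unadjusted p under 0.05 and 10 had every 28-month library above every 12-month library. Over all genes tested the median was -0.01 (0.01 with 5 libraries), and 4.18% had every 28-month library above. Of all genes, 0.0250% were called higher (0.0758% with 5 libraries) and 1.90% had an unadjusted p under 0.05 in that direction. Every one of these snoRNAs is in the study's lists of age-related genes or transcripts, which were drawn from these samples, so the shared direction is not independent evidence.

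The 33 named box H/ACA snoRNAs had a median log2FC of 0.75 (0.96 with 5 libraries). Of these 31 were positive, 11 had an unadjusted p under 0.05 in the quasi-likelihood test (26 with 5 libraries), against 1.90% of all genes in that direction (4.02% with 5). In 7 every 28-month library was above, against 4.18% of all genes. The quasi-likelihood test called 0 with 6 libraries and 1 with 5. The exact test called 6 higher with 6 libraries and 10 with 5. Of all genes it called 33 of 15992 higher with 6 libraries and 90 of 15840 with 5. All 33 are in the lists the study drew from these samples. SNORA48 (ENSRNOG00000045258) had 157.5, 123.7 and 129.1 normalized counts at 12 months and 359.7, 425.7 and 188.2 at 28 months (log2FC 1.25, standard error 0.26, FDR 0.333, against 0.00258 in the exact test and 0.000706 with DESeq2). SNORA19 (ENSRNOG00000034555), called with 5 libraries (log2FC 1.49, FDR 0.0229), had 6.25 and 5.59 in 12 months samples 1 and 2, 23.3 in sample 3 and 18.1, 14.2 and 17.6 at 28 months. Sample 3 was above all 28-month libraries there, and the log2FC with it was 0.51 (FDR 0.998).

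SNORA84 had 152.7, 226.5 and 194 normalized counts at 12 months and 685, 209 and 662 at 28 months, with 28 months sample 2 in the range of the 12-month libraries (log2FC 1.44, FDR 0.531, and 0.00254 in the exact test). SNORA15 had 19.6, 17.7 and 36.3 against 126, 35.7 and 58.7 (log2FC 1.59, FDR 0.552, and 0.00119 in the exact test). With 5 libraries its ages no longer overlapped (log2FC 1.98, FDR 0.113). SNORA31 and SNORA64, the 2 members of the class with a negative log2FC, had their highest values of all in 12 months sample 3, at 310.1 and 141, and with 5 libraries their log2FC was 0.60 and 0.58.

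These snoRNA levels moved with single libraries. Sample 3 was the highest of the 12-month libraries in 41 of the 52 named snoRNAs and scaRNAs (78.8%), against 36.6% of all genes tested. In 41 of the 52 the highest 28-month library was sample 1, against 5311 of all 15992 genes tested. Without 28 months sample 1 the median log2FC was 0.71 for box C/D and 0.44 for box H/ACA snoRNAs. The reads on these 52 RNAs were 0.304, 0.284 and 0.468% of gene reads at 12 months and 0.759, 0.562 and 0.538% at 28 months. All 28-month shares were above all 12-month shares, with a difference of the means of 0.267 percentage points. The 52 RNAs were all chosen by the study on these libraries, so this difference is a description.

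**Figure D5:**
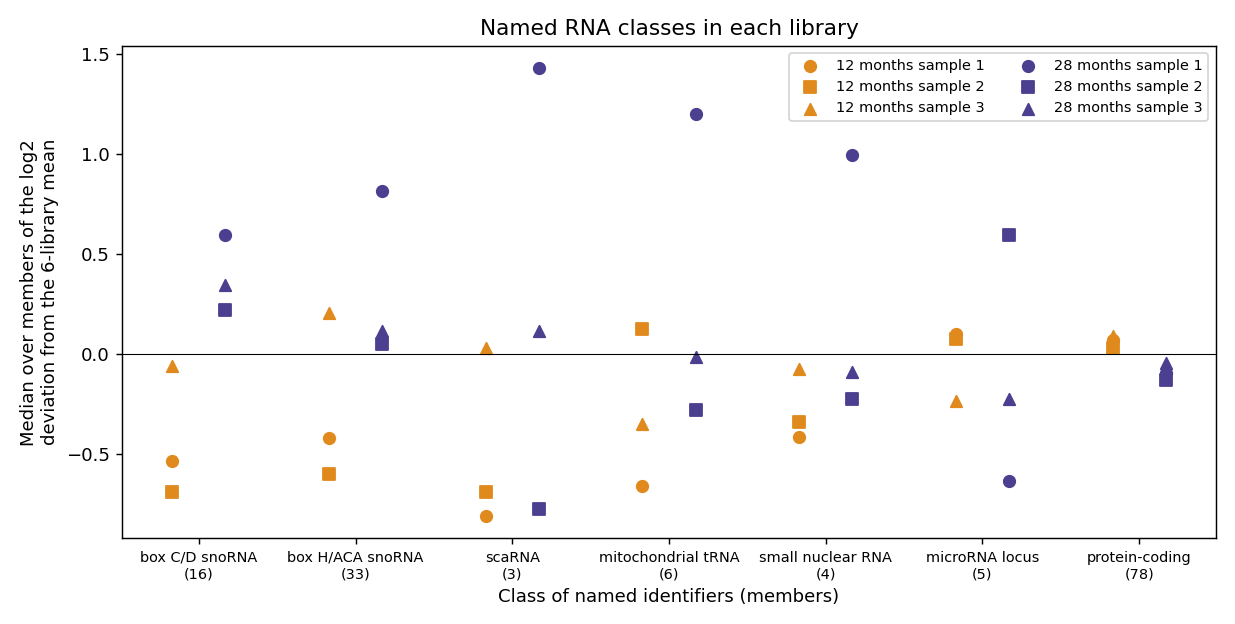
Median over the members of each class of named identifiers of the log2 deviation from the mean of 6 libraries (log2 of normalized count plus 0.5), 1 symbol per library, with the number of members in brackets. Among the snoRNA classes 12 months samples 1 and 2 lie lowest or near lowest, 12 months sample 3 lies between them and the 28-month libraries or among these, and 28 months sample 1 lies highest, as it does for mitochondrial tRNAs and small nuclear RNAs.

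Other small RNAs had no call by the quasi-likelihood test with 6 libraries, and the exact test called 1 scaRNA and 1 small nuclear RNA. The 3 scaRNAs, which guide modification of spliceosomal RNA in Cajal bodies, had log2FC values of 0.73 to 1.35 and a median of 1.34 (1.72 with 5 libraries), which was 0.60 without 28 months sample 1. SCARNA11 had 5.82, 4.91 and 10.8 normalized counts at 12 months and 29.2, 14.9 and 9.88 at 28 months (FDR 0.743, and 0.0200 in the exact test). Its 12 months sample 3 was above 28 months sample 3, so the ages overlapped.

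The 6 mitochondrial tRNAs had a median log2FC of 0.68 (0.60 with 5 libraries), which was 0.11 without 28 months sample 1, and 0 of them had an unadjusted p under 0.05 in the quasi-likelihood test with 6 libraries, while the exact test called 0. U7, the small nuclear RNA that processes histone messages, had 1.28, 2.18 and 1.40 normalized counts at 12 months and 6.88, 6.55 and 3.19 at 28 months (log2FC 1.77, standard error 0.37, FDR 0.345, against 0.00432 in the exact test and 0.0486 with DESeq2), with ages that did not overlap. The 5 microRNA loci had a median of 0.17 (0.07 with 5 libraries), and their summed level ran from 15312 to 19045 at 12 months and from 8156 to 21751 at 28 months, so that the 12-month range lay within the 28-month one.

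Only 148 identifiers have a name, so nearly all of the 15992 genes tested with 6 libraries and of the 15840 with 5 have none. Among the identifiers without a name, 1 was called with 6 libraries and 7 with 5, all of them higher at 28 months. Of all genes tested, 0.0250% were called higher with 6 libraries and 0.0758% with 5, and the shares among those without a name were not larger. ENSRNOG00000035877 had 3.26, 2.18 and 2.24 normalized counts at 12 months and 9.95, 10.4 and 8.51 at 28 months (log2FC 1.91, standard error 0.25, FDR 0.0271). ENSRNOG00000035033 had 31.4, 28.9 and 49.4 against 69.1, 77.0 and 77.2, and was called with 5 libraries (log2FC 1.30, FDR 0.0148) and not with 6 (FDR 0.264), where the exact test (FDR 0.0147) and DESeq2 (FDR 0.00285) passed it.

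The 34 identifiers that are named in the supplementary files outside the lists of age-related genes are no random sample either: all but Hprt1 are listed for changes in promoter or coding sequence use, some also for splicing, with age in these samples, and Hprt1 as a stable reference gene. Their log2FC ran from -0.44 to 0.31 with a median of 0.03, 20 were positive and 14 negative, and 0 were called by the quasi-likelihood test or the exact test. Of all genes, the first called 0.0250% higher and 0.0313% lower and the second 0.313% in both directions, so 0 calls among 34 say little. A single one of the 34 (2.94%) was lower at an unadjusted p under 0.05 in the quasi-likelihood test, near the 2.48% of all genes. It was D3ZQL1_RAT, at 51.4, 49.6 and 39.1 normalized counts against 31.1, 32.0 and 40.3 (log2FC -0.44, FDR 0.998).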

How the data were processed

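Total RNA was pooled from 2 rats per library, depleted of ribosomal RNA and sequenced on the SOLiD system, with RNA integrity numbers above 8. The authors mapped reads with Bowtie to the Ensembl release 65 rat genome (rn4) and deposited raw HTSeq counts per gene for 29516 identifiers, without normalization. Versions, strand and counting mode are not given in the sources used here. Rows of reads on no gene (47.5 to 60.0% of mapped reads) were left out of library sizes.

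Genes with 5 or more reads in at least 1 library compared were tested with TMM and the quasi-likelihood test of edgeR 4.0.16 (R 4.3.3), with Benjamini-Hochberg adjustment over all genes tested, with 3 libraries against 3 and again without 12 months sample 3. Alternatives were DESeq2 1.42.0, the exact test with tagwise dispersion (grid length 500, prior degrees of freedom 28, proportion of genes 0.5), RLE factors, other filters and each library left out. The fits were tested on simulated data, in which 100 genes changed by a log2FC of 1 in size and 100 by 2. The quasi-likelihood test with 6 libraries recovered 53 and 96 of them, with 9 false calls. The exact test recovered 59 and 98 with 18 false calls, and DESeq2 51 and 94 with 13. With 5 libraries the false calls were 19, 20 and 12 in the same order of tests. The simulated counts followed a negative binomial model with the dispersions estimated from these libraries, and no library was made to stand apart. Only genes with a mean of 20 or more reads were changed, so recovery at lower counts was not tested. These rates may not hold for the real libraries, where the calls changed with single libraries. Normalized counts are CPM after TMM. Intervals and tests cover the spread between 3 pools per age.

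Gene names came from the study's supplementary tables, which name 148 identifiers, 114 of them in lists chosen on these samples. The RefSeq table pairs 0 of them. Of 25 gene lists, those on MHC class I, oligodendrocyte precursors, interneurons, endothelium, antioxidants, mitochondrial messages and senescence had 0 members with an identifier and give no value. Named genes are those called in either fit, those the study names for these ages, up to 4 per list with the smallest unadjusted p, and further names with large changes and ages that do not overlap. The comparison and its lists were chosen with earlier results of these data known. Promoter windows are from RefSeq (GRCr8), matched by symbol for 6 of 6 genes looked up, and amplicons from the study's primer table. Results of some genes are not reported here.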

Additional observations from a re-analysis of the deposited data

How the results depend on the processing

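With 6 libraries, 9 genes were called by the quasi-likelihood test, and the exact test called 50, DESeq2 35, a minimum of 10 reads in every library 5, a minimum of 1 read in any library 42, and a fit over all 9 libraries 1. RLE factors, leaving out the most abundant identifier and a minimum of 5 reads in total each gave 9. The share of higher calls was 44.4% and became 66.0% with the exact test, 65.7% with DESeq2, 66.7% with a minimum of 1 read and 100% in the fit over 9 libraries. Leaving out 1 library gave 0 to 19 calls. With 5 libraries, 19 genes were called (63.2% higher), and the exact test called 128, DESeq2 82 (75.6% higher) and a minimum of 1 read in any library 139. Leaving out a further library gave 0 to 142, with 0 without 12 months sample 2 or 28 months sample 3, 3 without 12 months sample 1, 117 without 28 months sample 1 and 142 without 28 months sample 2. In these smaller fits 1 age can be left with 1 or 2 libraries, and a lone library is assumed to vary like the other age. The cause of the differences between settings was not tested. DESeq2 gave no adjusted p for 4342 genes with 6 libraries and 5221 with 5.

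The medians of the 6 gene lists stayed within 1 SD of the spread between libraries in all 84 repeats. That SD is taken within the ages and grows with a single outlying library, so large shifts can fall inside it. Without 28 months sample 1 the median of mitochondrial tRNAs went from 0.68 to 0.11 and that of scaRNAs from 1.34 to 0.60. Of 1052 repeats of the log2FC of 76 named genes, 1036 kept the direction. The 16 that turned belong to 5 genes whose ages overlap. When 1 library was left out the log2FC ran from -1.29 to 0.036 for Tph2, from -0.59 to 0.32 for Arc, from -0.48 to 0.41 for Etv1, from -0.089 to 0.041 for Hprt1 and from -0.29 to 0.16 for Klf10. Hprt1 was at 4.21e-06 with DESeq2, 0.00027 with RLE factors and 0.0044 in the fit over 9 libraries, and Klf10 at 0.0014, 0.0016 and 0.00396 in the same 3 settings. The difference in the snoRNA share, 0.267 percentage points of gene reads, was 0.538 when the most abundant identifier was left out of the denominator, and 0.198 to 0.325 when 1 library was left out. The shares of the most abundant identifier (49.8% at 12 and 49.2% at 28 months) and of reads on no gene (52.6% and 54.7%) differed with an exact permutation p of 0.6. Shares of mitochondrial messages were not computed, since no identifier was at hand.

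No paired analysis was possible because the labels number the samples in 1 run and give the 12- and 28-month samples no shared replicate numbers. Depth limits genes under 20 mean reads, of which 5220 were tested and 0 called, with a median standard error of 0.57 on the log2 scale against 0.26 from 20 to 100 reads.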
